A study of Homo sapiens with 4 samples.

Results

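Keratins are the intermediate filament proteins of epithelial cells. Each filament is built from an acidic type I keratin paired with a basic or neutral type II keratin, and the pair in use marks the kind of epithelium. In the prostate, luminal secretory cells carry KRT8 and KRT18 and basal cells carry KRT5 and KRT14, while hair keratins belong to the hair shaft and are not typical of glandular tissue. KRT5 and KRT14 are used to tell benign prostate glands, which keep a basal layer, from cancer.

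The keratin genes were taken as all protein-coding genes whose platform symbol is KRT, a number and at most a letter A, B or C. Pseudogenes and the keratin-associated protein genes (KRTAP) were left out. Of 55 such genes in the gene table, 46 were measured, by 55 array features, among 18334 genes in all. The other 9 (KRT6A, KRT6B, KRT17, KRT39, KRT78, KRT81, KRT82, KRT84 and KRT86) were not analysed here. A gene with several features, as was the case for 7 keratins, is given as their mean.

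The study treated LNCaP, a human prostate carcinoma cell line of luminal character that responds to androgen. Cells were kept without serum for 24 h and then received 1 µM 5-azacytidine, a cytidine analogue that traps DNA methyltransferases, or the vehicle dimethyl sulphoxide (DMSO), for 24 h or for 48 h. Treated RNA in Cy5 was hybridised with vehicle RNA of the same time in Cy3 on Agilent arrays, 2 arrays at each time and no dye swap, so every value below is a log2 ratio of azacytidine over DMSO. Vehicle and treated cells alike were serum starved, and all come from 1 cell line.

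The table does not state the direction or the base of its ratios, which were taken from the software's convention and the dyes in the labels. With the opposite direction every sign below would turn and the counts of higher and lower genes would change places. Read as log2 in place of log10, KRT19 would stand at 1.31 at 48 h in place of 4.35 and KRT15 at 1.06 in place of 3.51, with the same keratins called.

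An array ratio says nothing of a gene's level. The luminal label of LNCaP could thus not be checked through the amounts of KRT8 and KRT18, and ratios of different genes were not read as differences in level. Nor can fewer cells of a type be told apart from less RNA per cell in such bulk samples. The authors' table lists 6011 to 6695 features of each array at exactly 0, for a reason not given in the sources used here. Of the 46 keratins, 24 had no array at 0, 15 had between 1 and 3 arrays at 0, and 7 were listed at 0 on all 4 arrays. These 7 were KRT5, KRT25, KRT26, KRT27, KRT40, KRT73 and KRT77, and nothing can be read from them in either direction. Replicates correlated at 0.917 for 24 h and 0.873 for 48 h, taken over genes (no independent replicates themselves), and the median absolute difference between replicates was 0.126 at 24 h and 0.332 at 48 h. Nothing in the labels says that replicate arrays came from separate cultures, so the p-values measure the spread between these arrays only, which may be technical.

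After 24 h of azacytidine 7 of the 46 keratins had a limma adjusted p under 0.05, against 24.3% of all genes. Those that rose were KRT19, KRT80, KRT7, KRT6C, KRT15 and KRT16, and KRT35 fell. After 48 h 8 of 46 passed, against 38.8% of all genes, and all 8 gene means were above 0: KRT19, KRT15, KRT80, KRT9, KRT31, KRT71, KRT85 and KRT18. The KRT18 mean joins features of opposite sign, given below with its values, and it is counted in what follows by its mean. The share of keratins that passed was 15.2% at 24 h and 17.4% at 48 h, so at neither time was it above the background of all genes. By direction, 6 keratins were higher at 24 h (14.3% of all genes) and 1 lower (9.97%). At 48 h 8 were higher (18.2% of all genes) and 0 lower (20.7%). At each time 14 of the 46 keratins had an unadjusted limma p under 0.05. Of all 18334 genes 7780 did at 24 h and 9646 at 48 h. KRT15, KRT19 and KRT80 passed at both times. In the average of both times 10 keratins passed, or 21.7% against 32.9% of all genes, and all 10 means were above 0 (16.7% of all genes were higher and 16.2% lower). With 48 h replicate 2 as the only 48 h array, KRT10, KRT13 and KRT20 were called lower at 48 h and in the average. KRT34 was then called lower at 48 h and KRT38 in the average. On that array KRT10 was at -1.02, KRT13 at -0.51, KRT20 at -1.02 and KRT34 at -0.26. On 48 h replicate 1 they were at -0.046, 0.74, 0.25 and 1.05. That fit holds 1 array at 48 h, so no counts of calls are given for it.

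These calls rest on the 24 h arrays together. When either 24 h array was left out, limma called 0 keratins and 0 genes at all at any time, since the spread then came from the 48 h arrays alone. When either 48 h array was left out, KRT15, KRT19, KRT6C and KRT80 kept their 24 h call, and KRT7, KRT16 and KRT35 lost it. With a term for the replicate number (replicate block) limma also called 0 keratins and 0 genes at all at each time. In that fit 12 keratins had an unadjusted p under 0.05 at 24 h and 14 at 48 h. The share of all genes at an unadjusted p is not given for it.

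**Figure D1:**
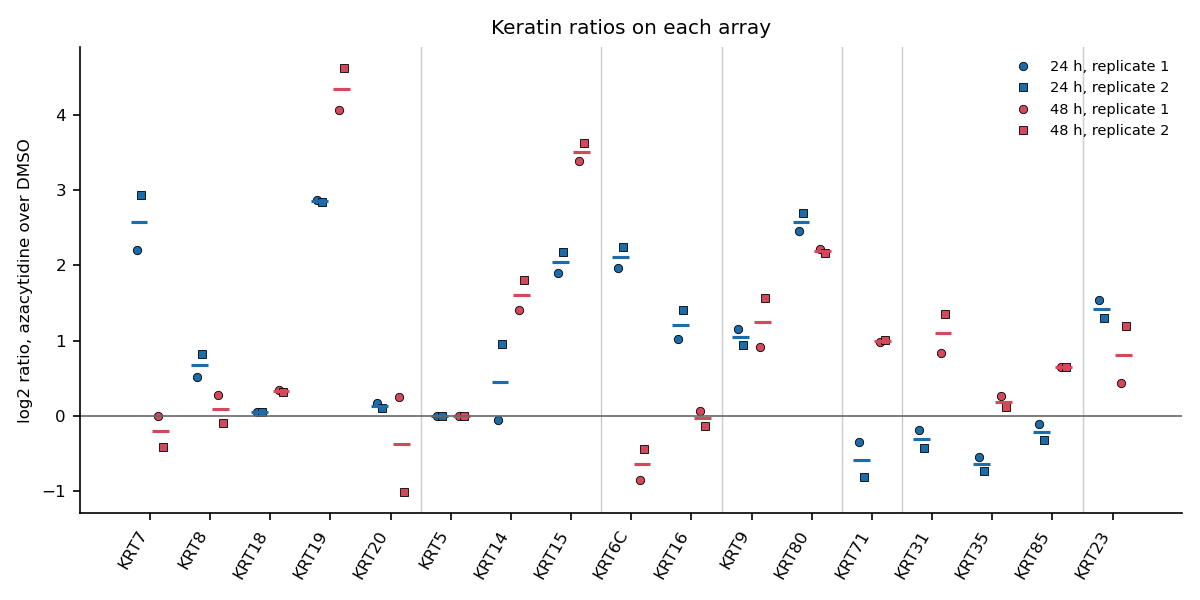
Log2 ratio of azacytidine over DMSO (vertical axis) on each of the 4 arrays for the 17 keratins given in full, ordered by class from luminal on the left to KRT23 on the right. Points are arrays and horizontal bars the mean of the 2 arrays of a time; KRT19 and KRT15 stand higher at 48 h than at 24 h, KRT7 and KRT6C stand high at 24 h alone, and KRT5 is listed at 0 throughout.

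Among the luminal and simple-epithelial keratins the ratios ran from near 0 to the highest of the whole family. KRT19, a small type I keratin of simple and glandular epithelium, had ratios of 2.87 and 2.85 on the 24 h arrays and of 4.07 and 4.63 on the 48 h arrays. All 4 arrays were high and the times did not overlap. Its mean was 2.86 ± 0.013 at 24 h (SD, n = 2 arrays, as for every mean that follows), or 7.26-fold (limma adjusted p = 0.0163). At 48 h it was 4.35 ± 0.39, or 20.4-fold (limma adjusted p = 0.00779). Among gene means over all features KRT19 had the highest at either time, although KRT7 exceeded it on 24 h replicate 2 and KRT80 did at both times when its feature with values at 0 was left out.

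KRT7, the type II keratin of many ductal and glandular epithelia, had ratios of 2.20 and 2.94 at 24 h but of 0 and -0.41 at 48 h. It was high on both 24 h arrays only. The 24 h mean was 2.57 ± 0.53, or 5.95-fold (limma adjusted p = 0.0264), and the 48 h mean was -0.21 ± 0.29 (limma adjusted p = 0.595), with 1 of the 48 h arrays listed at exactly 0. The difference of 48 h minus 24 h was -2.78 with a standard error of 0.37 (limma adjusted p = 0.0416).

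KRT8 and KRT18, the pair that defines simple epithelium and the luminal cells of the prostate, had gene means near 0 or below 1. The KRT8 ratio was 0.51 and 0.83 at 24 h and 0.27 and -0.10 at 48 h, and passed at neither time (limma adjusted p = 0.0761 and 0.728). KRT18 was at 0.046 ± 5.29e-04 at 24 h (limma adjusted p = 0.358) and at 0.33 ± 0.014 at 48 h, or 1.26-fold (limma adjusted p = 0.0167). KRT20, a type I keratin of intestinal and urothelial surface cells, had ratios of 0.16 and 0.096 at 24 h and of 0.25 and -1.02 at 48 h. Its 48 h arrays had opposite signs, and it passed at neither time (limma adjusted p = 0.879 and 0.505).

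The gene means of KRT8 and KRT18 hide features that ran in opposite directions. KRT8 feature 1 had ratios of 1.17 and 1.55 at 24 h and of -0.34 and -1.38 at 48 h. KRT8 feature 2 had -0.15 and 0.10 at 24 h and 0.88 and 1.18 at 48 h. Both carry the same transcript accession in the platform annotation, yet feature 1 was higher at 24 h and feature 2 at 48 h, with no overlap between times in either.

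The 4 features of KRT18 split in the same way. Feature 1 was at 0.71 and 0.50 at 24 h and at -0.78 and -1.53 at 48 h, and feature 2 was at 0.18 and 0.30 at 24 h and at -0.0038 and -0.30 at 48 h. Feature 3, annotated with another accession, was at -0.75 and -0.76 at 24 h and at 1.3 and 2.32 at 48 h. Feature 4 was at 0.055 and 0.15 at 24 h and at 0.85 and 0.79 at 48 h. Thus 2 features of KRT18 had lower values at 48 h than at 24 h and the other 2 higher values, and at 48 h the feature means spanned 2.96 on the log2 scale. The small SD of the KRT18 gene mean covers the spread between arrays and not this spread between features. With the median of its features in place of the mean, KRT18 was at 0.33 at 48 h and did not pass (limma adjusted p = 0.0551). Fitted singly at 48 h, KRT8 feature 2 (limma adjusted p = 0.0247), KRT18 feature 3 (0.0432) and KRT18 feature 4 (0.0105) were higher and passed. KRT8 feature 1 (0.159) and KRT18 feature 1 (0.0565), with negative means, did not. The gene means of KRT8 and KRT18 thus stand for no common direction of their features.

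**Figure D2:**
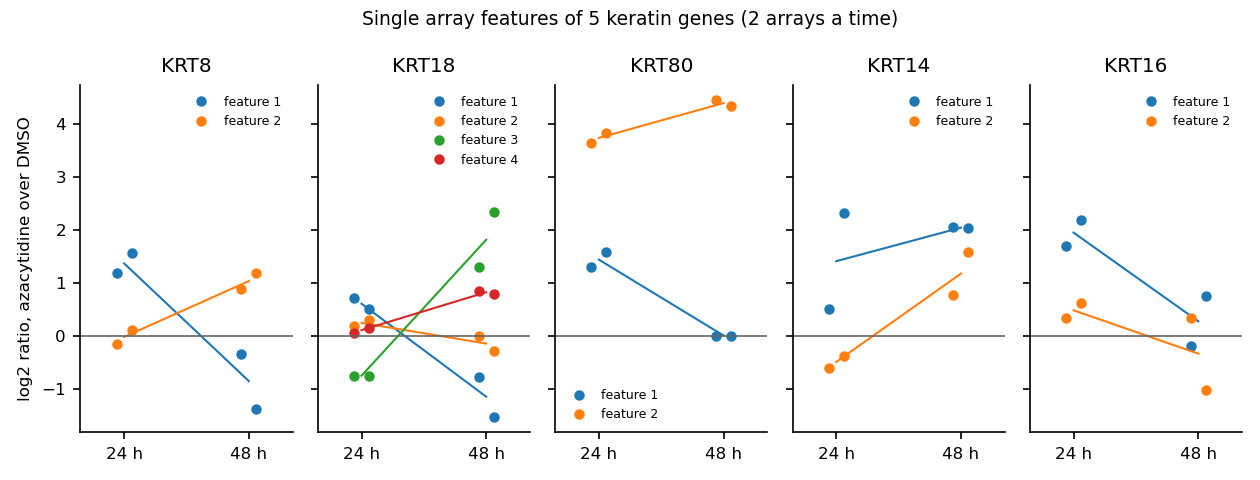
Log2 ratio of azacytidine over DMSO (vertical axis) for each array feature of KRT8, KRT18, KRT80, KRT14 and KRT16, with a point per array, 2 arrays at 24 h and 2 at 48 h, and lines joining the means. The features of KRT8 and KRT18 cross between the times, and those of KRT80 lie far apart at both.

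Basal keratins were led by KRT15. This type I keratin of basal cells, known also from the stem cells of the hair follicle, had ratios of 1.90 and 2.18 at 24 h and of 3.39 and 3.62 at 48 h. It was high on all 4 arrays, and the times did not overlap. The mean was 2.04 ± 0.20 at 24 h, or 4.11-fold (limma adjusted p = 0.016), and 3.51 ± 0.17 at 48 h, or 11.4-fold (limma adjusted p = 0.00734).

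KRT14, the type I partner of KRT5 in basal cells, had gene ratios of -0.053 and 0.96 at 24 h and of 1.40 and 1.80 at 48 h. The 24 h arrays disagreed in sign while both 48 h arrays were positive. The 48 h mean of 1.60 ± 0.28 missed the threshold (limma adjusted p = 0.0519). Feature 1 of KRT14 was at 0.50 and 2.31 at 24 h and at 2.04 and 2.03 at 48 h, and feature 2 at -0.60 and -0.39 at 24 h and at 0.77 and 1.57 at 48 h. Both features were positive on both 48 h arrays. KRT5, the type II keratin of the basal pair, was listed at 0 on all arrays, so the pair cannot be compared.

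The activation keratins, which keratinocytes switch on after wounding, were measured by KRT6C and KRT16 only. KRT6C had ratios of 1.97 and 2.25 at 24 h and of -0.85 and -0.44 at 48 h. Both 24 h arrays were high and both 48 h arrays below 0. Its mean was 2.11 ± 0.20 at 24 h, or 4.32-fold (limma adjusted p = 0.0194), and -0.64 ± 0.29 at 48 h (limma adjusted p = 0.0663). The difference of 48 h minus 24 h was -2.76 with a standard error of 0.22 (limma adjusted p = 0.0281). KRT6C is nearly identical in sequence to KRT6A and KRT6B, and the files hold no probe sequences, so a signal from those genes on its feature was not tested.

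KRT16 showed the same order of times at a smaller size. Its gene ratio was 1.02 and 1.40 at 24 h and 0.066 and -0.14 at 48 h. The 24 h mean was 1.21 ± 0.27, or 2.31-fold (limma adjusted p = 0.0297), and the 48 h mean -0.036 ± 0.14 (limma adjusted p = 0.916). Of its 2 features, feature 1 stood at 1.70 and 2.19 at 24 h and feature 2 at 0.34 and 0.61, and neither passed when fitted singly at 24 h (limma adjusted p = 0.0558 and 0.491). At 48 h feature 1 was at -0.20 and 0.74 and feature 2 at 0.34 and -1.02, so the 48 h gene mean joins values of both signs. The gene difference of 48 h minus 24 h was -1.25 (limma adjusted p = 0.0468). Neither feature passed that difference when fitted singly (limma adjusted p = 0.0965 and 0.384).

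Suprabasal and barrier keratins, those of the upper layers of stratified epithelia and of the cornea, were higher at 24 h in 1 of 13 measured members and at 48 h in 2. Of all genes 14.3% were higher at 24 h and 18.2% at 48 h. KRT80, a type II keratin found broadly in epithelia, had gene ratios of 2.46 and 2.70 at 24 h and of 2.22 and 2.17 at 48 h. The mean was 2.58 ± 0.17 at 24 h, or 5.99-fold (limma adjusted p = 0.0133), and 2.19 ± 0.037 at 48 h, or 4.57-fold (limma adjusted p = 0.00762). Its features differed in size. Feature 1 was at 1.29 and 1.58 at 24 h and was listed at 0 on both 48 h arrays, while feature 2 was at 3.64 and 3.82 at 24 h and at 4.44 and 4.34 at 48 h. Without the feature that holds exact 0 values, KRT80 thus stood at 3.73 at 24 h and 4.39 at 48 h. The difference of 48 h minus 24 h was 0.66 for feature 2 (limma adjusted p = 0.0474, fitted singly). For feature 1 it was -1.43 (limma adjusted p = 0.0311), but both 48 h values there are exact 0 values of unknown reason. No fall can be read from feature 1.

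KRT9, the type I keratin of the suprabasal skin of palms and soles, had ratios of 1.15 and 0.94 at 24 h and of 0.91 and 1.57 at 48 h. The times overlapped, and all 4 arrays were positive. It passed at 48 h, with a mean of 1.24 ± 0.46 or 2.37-fold (limma adjusted p = 0.0385), and not at 24 h, with 1.04 ± 0.15 (limma adjusted p = 0.0651). Of the remaining members, KRT77 was listed at 0 throughout. The other 10 ranged at 24 h between -0.70 for KRT76, a keratin of the palate and gingiva, and 1.96 for KRT2, a keratin of the upper epidermis. At 48 h they ranged between -0.53 for KRT10 and 1.11 for KRT3, which forms the corneal pair with KRT12. None of the 10 passed at either time. KRT10, the type I keratin of differentiating epidermis, was at 0.71 and 0.72 at 24 h and at -0.046 and -1.02 at 48 h. The RNA annotated as its antisense partner, KRT10-AS1, was at 0.69 and 0.47 at 24 h and at -1.16 and -1.51 at 48 h. KRT10-AS1 was lower at 48 h (limma adjusted p = 0.0175) and in 48 h minus 24 h (0.032). KRT10 passed in neither (limma adjusted p = 0.262 and 0.127).

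Hair keratins are the hard keratins of the hair shaft. Of 12 measured members 0 were higher and 1 lower at 24 h, and 2 were higher and 0 lower at 48 h. Of all genes 14.3% were higher and 9.97% lower at 24 h, and 18.2% higher and 20.7% lower at 48 h. KRT35, a type I keratin of the hair matrix and cuticle, had ratios of -0.54 and -0.74 at 24 h and of 0.26 and 0.12 at 48 h. It fell at 24 h, with a mean of -0.64 ± 0.14 (limma adjusted p = 0.0332), and its 48 h mean of 0.19 ± 0.097 did not pass (limma adjusted p = 0.168).

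Both hair keratins that rose at 48 h had been below 0 at 24 h, where neither passed (limma adjusted p = 0.304 for KRT31 and 0.136 for KRT85). The difference of 48 h minus 24 h passed for KRT85 (limma adjusted p = 0.038) and not for KRT31 (0.0538). KRT31, the main type I keratin of the hair cortex, had ratios of -0.19 and -0.43 at 24 h and of 0.84 and 1.36 at 48 h. Its 48 h mean was 1.1 ± 0.37, or 2.14-fold (limma adjusted p = 0.0351). KRT85, a type II keratin of the hair matrix, had ratios of -0.11 and -0.32 at 24 h and of 0.64 and 0.65 at 48 h, with a 48 h mean of 0.65 ± 0.0064 or 1.57-fold (limma adjusted p = 0.0205). Among the rest KRT40 was listed at 0 and KRT32, a cuticle keratin, had the highest ratios, at 1.14 and 2.26 at 24 h and at 1.35 and 1.81 at 48 h. KRT32 passed at neither time alone (limma adjusted p = 0.0714 and 0.0631) and passed in the average of both times, where its ratio was 1.64 (limma adjusted p = 0.0377). The remaining 7 hair keratins, KRT33A, KRT33B, KRT34, KRT36, KRT37, KRT38 and KRT83, lay between -0.28 and 0.63 at 24 h and between -0.32 and 0.52 at 48 h. KRT33A and KRT33B are close copies of each other, as KRT83 is of KRT81 and KRT86, and cross-hybridisation among them was not tested.

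Of the keratins of the inner root sheath and companion layer, which surround the growing hair, 4 of 9 were listed at 0 on all arrays. KRT71, a type II keratin of the inner root sheath, had ratios of -0.35 and -0.82 at 24 h and of 0.98 and 1.00 at 48 h. Its 48 h mean was 0.99 ± 0.014, or 1.99-fold (limma adjusted p = 0.0311). KRT28, KRT72, KRT74 and KRT75 ranged from -1.44 to 1.39 at 24 h and from -0.54 to 1.75 at 48 h, and none of these 4 passed. KRT72 was positive on all 4 arrays, at 0.85 and 1.94 at 24 h and at 1.1 and 2.40 at 48 h.

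Outside these classes, KRT23, a type I keratin whose expression varies widely among carcinomas, had ratios of 1.54 and 1.30 at 24 h and of 0.43 and 1.19 at 48 h. All arrays were positive. It missed the threshold at 24 h with 1.42 ± 0.17 (limma adjusted p = 0.0511) and at 48 h with 0.81 ± 0.53 (limma adjusted p = 0.0956), and passed in the average of both times at 1.12 (limma adjusted p = 0.0357). KRT222, an atypical type I member, was at 1.03 and 0 at 24 h and at -0.11 and -1.91 at 48 h and did not pass.

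Since azacytidine lowers cytosine methylation at CG pairs, the CG content of keratin promoters is shown here for members that passed a test and had an entry in the RefSeq promoter table (build GRCh38.p14, 250 bases before to 50 after the gene start). These were KRT9, KRT31, KRT71 and KRT85, which were higher at 48 h, and KRT35, which fell at 24 h. The ones with the most CG pairs, KRT9 and KRT85, and the one with none, KRT35, are printed to show the range. All 3 lie on the minus strand of the chromosome and are printed 5′ to 3′ along the gene, with CG pairs in capitals. Of the 2 starts listed for KRT85 the upstream one is printed.
KRT9, chr17:41572010-41572309: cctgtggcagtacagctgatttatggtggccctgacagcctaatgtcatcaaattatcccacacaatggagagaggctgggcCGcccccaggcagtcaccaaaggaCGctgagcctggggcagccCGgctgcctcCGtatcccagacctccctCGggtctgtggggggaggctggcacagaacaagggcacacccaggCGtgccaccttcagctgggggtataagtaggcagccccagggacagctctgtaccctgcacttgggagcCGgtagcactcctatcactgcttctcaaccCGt
KRT85, chr12:52367432-52367731: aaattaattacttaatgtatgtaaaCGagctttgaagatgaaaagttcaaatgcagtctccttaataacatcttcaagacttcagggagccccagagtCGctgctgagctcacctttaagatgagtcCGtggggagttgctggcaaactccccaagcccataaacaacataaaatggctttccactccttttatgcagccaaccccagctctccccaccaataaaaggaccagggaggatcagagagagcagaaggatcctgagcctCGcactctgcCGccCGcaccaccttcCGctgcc
KRT35, chr17:41481102-41481401: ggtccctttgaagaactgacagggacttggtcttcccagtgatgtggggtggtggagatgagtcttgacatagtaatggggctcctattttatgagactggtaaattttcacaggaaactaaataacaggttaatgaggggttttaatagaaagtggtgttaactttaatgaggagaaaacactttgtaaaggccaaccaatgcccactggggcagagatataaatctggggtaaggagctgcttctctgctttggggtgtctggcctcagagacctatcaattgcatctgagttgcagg

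KRT9 holds 8 CG pairs in these 300 bases, KRT85 holds 7 at the printed start and 0 at its other start, KRT31 holds 2, KRT71 holds 1 and KRT35 holds 0. The keratins higher at 48 h that had an entry thus held from 0 to 8 CG pairs at a listed start. All of these counts lie below the median of 14 over all promoters. Across the 31 of 46 measured keratins with an entry, 35 listed promoters held between 0 and 8 CG pairs with a median of 2. Over all 35116 promoters of the table the median was 14, with quartiles of 4 and 28, and 58.4% held more CG pairs than any of these keratin promoters. The motif TATAAA, searched on both strands and sharing no base with a CG pair, was in 18 of the 35 keratin promoters (51.4%) and in 11.5% of all promoters. These are counts of letters and say nothing of methylation in these cells, which was not measured here. KRT7, KRT15, KRT16, KRT18, KRT19, KRT6C and KRT80 were not among the entries used.

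**Figure D3:**
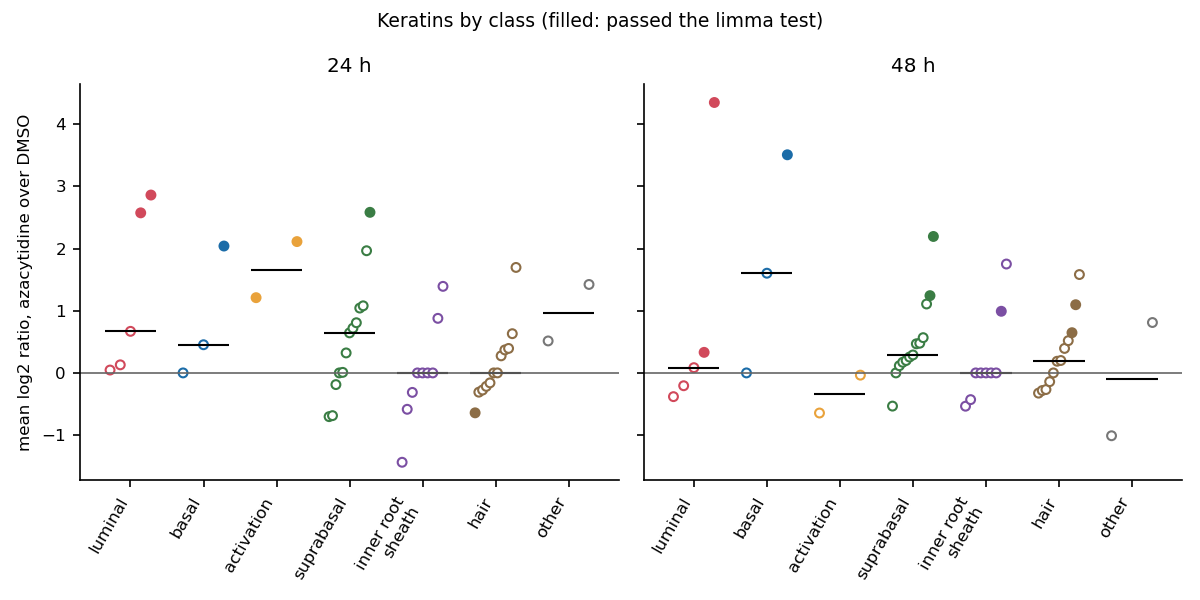
Mean log2 ratio of azacytidine over DMSO (vertical axis) of each measured keratin by class (horizontal axis), at 24 h on the left and at 48 h on the right. Filled circles passed the limma test at that time, open circles did not, and black bars are class medians. The highest points at 48 h are KRT19, of the luminal and simple-epithelial class, and KRT15, of the basal class, while the hair medians lie near 0.

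Side by side, the class medians followed few members each. Luminal and simple-epithelial keratins had a median of 0.67 at 24 h and 0.084 at 48 h over 5 genes. Basal keratins had 0.45 at 24 h and 1.60 at 48 h over 3 genes with KRT5 at 0 among them, and 1.25 and 2.55 without it. Hair keratins had 2.11e-04 at 24 h and 0.19 at 48 h over 12 genes. All 46 keratins had medians of 0.30 and 0.18 at these times, against 0 for all genes at both. On single arrays the median of the 46 was 0.0047 and 0.071 at 24 h and 0.26 and 0 at 48 h, so no general shift of keratins is read from these medians. By array, the basal median was 0 and 0.96 at 24 h and 1.40 and 1.80 at 48 h, the luminal median 0.51 and 0.83 at 24 h and 0.27 and -0.10 at 48 h, and the hair median 0 and 0 at 24 h and 0.020 and 0.059 at 48 h. With 3 and 5 genes in the smaller classes, no difference between classes is claimed. The 27 type I keratins counted 3 higher and 1 lower at 24 h and 5 higher at 48 h, and the 19 type II keratins 3 higher at each time. Among all genes 14.3% were higher and 9.97% lower at 24 h, and 18.2% higher and 20.7% lower at 48 h.

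The change between times was tested directly as 48 h minus 24 h, where 10 of 46 keratins passed, or 21.7%, against 23% of all genes. Of these, 6 were higher at 48 h than at 24 h (9.83% of all genes) and 4 lower (13.1%). The higher were KRT19 by 1.49 (limma adjusted p = 0.0498), KRT15 by 1.47 (0.0366), KRT71 by 1.58 (0.0416), KRT85 by 0.86 (0.038), KRT35 by 0.83 (0.0419) and KRT18 by 0.28 (0.0467), the last with features in both directions. The lower were KRT7, KRT6C and KRT16 as described, and KRT33B, at 0.30 and 0.44 at 24 h and at -0.21 and -0.32 at 48 h, with a difference of -0.64 (limma adjusted p = 0.0444). KRT19 and KRT15 were thus high at 24 h and higher at 48 h. By contrast, the gene means of KRT7, KRT6C and KRT16 were high at 24 h and near or below 0 at 48 h. For KRT16 the 2 features had 48 h means of opposite sign (0.27 and -0.34), and neither passed the difference singly. KRT80 was high at both times. Its gene difference of -0.39 did not pass (limma adjusted p = 0.103) and includes the feature listed at 0 on both 48 h arrays. Without that feature KRT80 was called higher at 48 h than at 24 h.

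**Figure D4:**
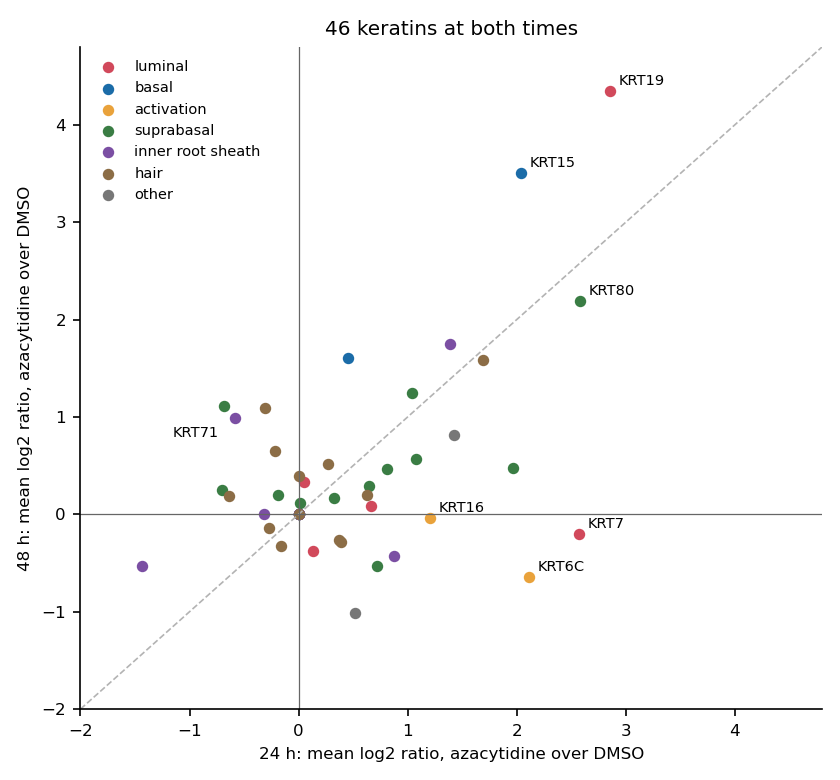
Mean log2 ratio of azacytidine over DMSO at 24 h (horizontal axis) and at 48 h (vertical axis) for the 46 measured keratins, coloured by class, with equal ratios on the dashed line. Named are KRT80 and the keratins whose difference between times passed the limma test and was at least 2-fold; KRT19, KRT15 and KRT71 lie above the line and KRT7, KRT6C and KRT16 below it.

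Keratin genes lie in 2 clusters, the type I genes on chromosome 17 and the type II genes with KRT18 on chromosome 12. In the gene table of assembly GRCh38.p14, KRT15 and KRT19 are adjacent among keratins, and KRT9, KRT14 and KRT16 follow them in that order. At 48 h these 5 genes had means of 3.51, 4.35, 1.24, 1.60 and -0.036, while KRT13 on the other side of KRT15 was at 0.12. At 24 h the same 5 had 2.04, 2.86, 1.04, 0.45 and 1.21, and KRT13 had 0.0089. On chromosome 12 the neighbours KRT80 and KRT7, at one end of the cluster, had 2.58 and 2.57 at 24 h, and at 48 h 2.19 and -0.21. KRT8 and KRT18, at the other end, are neighbours as well. High ratios were also found away from these runs, as for KRT6C, KRT2 and KRT32, so that position and ratio are given as a description only.

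**Figure D5:**
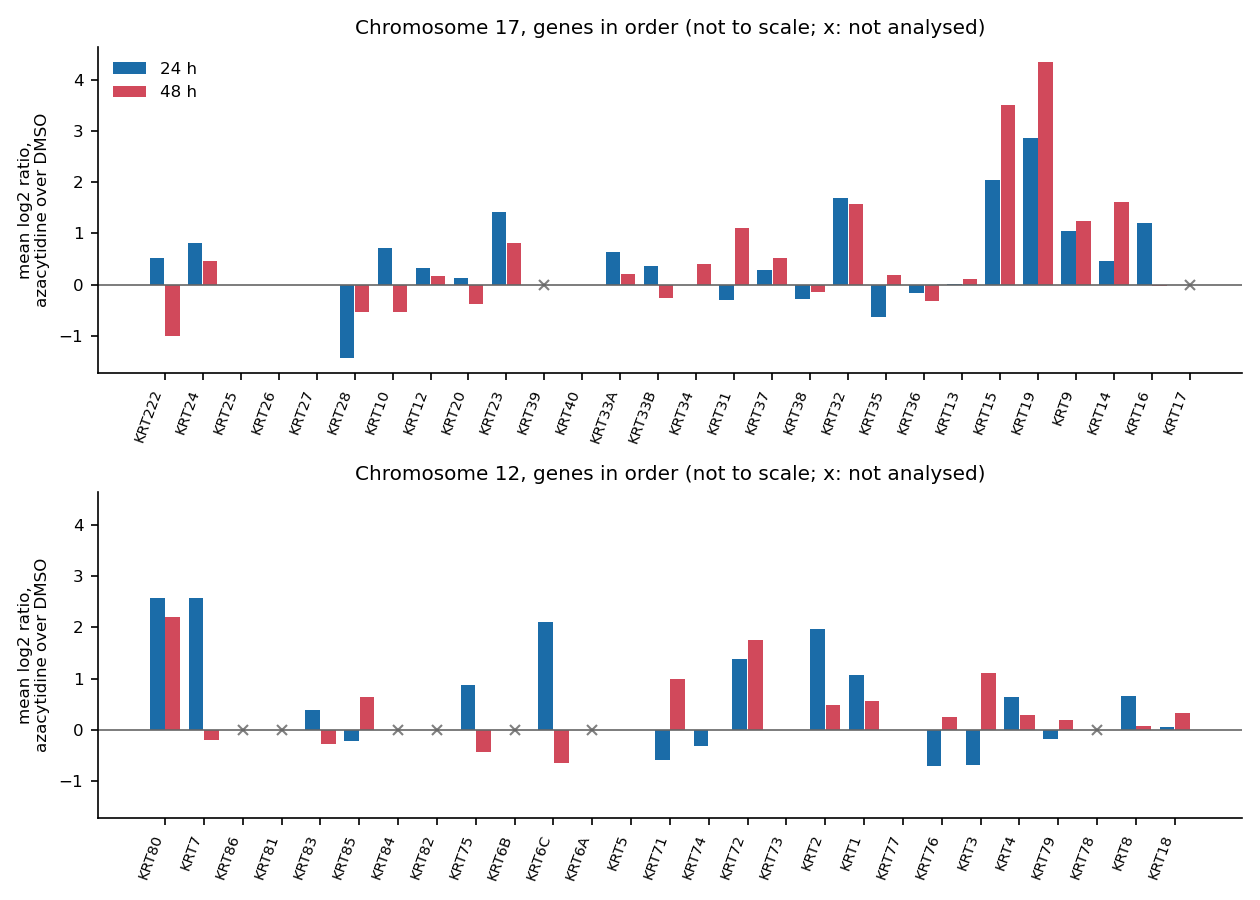
Mean log2 ratio of azacytidine over DMSO (vertical axes) at 24 h and at 48 h for keratin genes in their order on chromosome 17 (top) and chromosome 12 (bottom), not drawn to scale. Bars are means of 2 arrays, crosses mark genes not analysed, and genes without a bar were at or near 0; on chromosome 17 the tallest bars are those of the neighbours KRT15 and KRT19.

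Genes that work with keratins were described through further lists, whose counts stand against 14.3% higher and 9.97% lower among all genes at 24 h, and 18.2% higher and 20.7% lower at 48 h. Other intermediate filament genes, 15 measured, had 3 higher and 3 lower at 24 h and 8 higher and 2 lower at 48 h. The neurofilament gene NEFH was at 4.05 ± 0.036 at 24 h (limma adjusted p = 0.0155) and at 5.79 ± 0.49 at 48 h (limma adjusted p = 0.00762), NEFM at 2.53 ± 0.35 and 3.52 ± 0.31, and the muscle filament gene DES at 0.12 ± 0.043 and 1.39 ± 0.081. The list's median was 0.41 at 24 h and 0.38 at 48 h. Desmosome genes, which anchor keratin filaments between cells, had 3 higher and 1 lower of 13 at 24 h and 1 higher at 48 h, with medians of 0.62 and 0. The cadherin genes DSC2, at 1.37 ± 0.0072 and 0.058 ± 0.046, and DSC1, at 3.40 ± 0.030 and 0.60 ± 0.85, passed at 24 h (limma adjusted p = 0.0127 and 0.0286) and not at 48 h (0.3 and 0.296). PERP, a desmosome membrane protein gene, was at 1.20 ± 0.014 and 1.19 ± 0.52 and passed at 48 h only (limma adjusted p = 0.0461). Hemidesmosome genes, which anchor keratins to the basement membrane, had 1 higher of 6 at 24 h and 3 higher and 1 lower at 48 h, with medians of 0.16 and 0.45. LAMB3 had the highest ratio of them, at 3.69 ± 0.18 at 24 h and 4.74 ± 0.41 at 48 h, with DST at 0.61 ± 0.17 and ITGA6 at -1.87 ± 0.58 at 48 h.

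Cornified envelope genes, whose products cover the keratin-filled cells of the skin surface, had 4 higher and 1 lower of 15 at 24 h and 6 higher and 1 lower at 48 h, with medians of 0.47 and 0.70. The protease inhibitor gene CSTA was at 5.40 ± 0.21 and 5.43 ± 0.45, SPRR1A at 0.88 ± 0.039 and 1.53 ± 0.014, and the plakin gene PPL at 1.59 ± 0.066 and 0.21 ± 0.003, in the order 24 h and 48 h. Keratin binding and regulation genes had 4 higher of 11 at 24 h, and 5 higher and 2 lower at 48 h, with medians of 0.22 and -0.041 and with SFN at 2.17 ± 0.12 and 1.98 ± 0.71. Transcription factors of keratin genes had 6 higher and 0 lower of 15 at 24 h and 8 higher and 2 lower at 48 h, with medians of 0.48 and 0.74. KLF4, a factor of barrier formation, was at 2.84 ± 0.045 and 1.69 ± 0.22, GRHL2 at 0.48 ± 0.080 and 1.53 ± 0.092, and OVOL1 at 0.75 ± 0.015 and 0.95 ± 0.030. TP63, the basal cell master factor, was not analysed here.

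Basal and luminal markers outside the keratins are given beside KRT15, KRT14 and KRT19. Of 8 measured basal markers, 5 were higher and 0 lower at 24 h, and 6 higher and 0 lower at 48 h, with medians of 0.86 and 1.39. Among all genes 14.3% were higher and 9.97% lower at 24 h, and 18.2% higher and 20.7% lower at 48 h. The list counts the hemidesmosome genes LAMB3 and ITGB4 but leaves out ITGA6. That gene was lower at 48 h, at -1.87 ± 0.58 (limma adjusted p = 0.0272), so the 0 lower holds for the chosen list only. EGFR was at 0.60 ± 0.030 and 1.44 ± 0.0085. Of 8 measured luminal markers, 2 were higher and 1 lower at 24 h, and 1 higher and 5 lower at 48 h, with medians of -0.022 and -1.03. KLK3, the prostate-specific antigen gene, was at 1.17 ± 0.066 and 1.16 ± 0.058, while the homeobox gene HOXB13 was at -1.52 ± 0.049 and -1.33 ± 0.19 and the acid phosphatase gene ACP3 at 0.055 ± 0.032 and -2.56 ± 0.30. KRT19, placed here with the luminal and simple-epithelial keratins, was higher at 48 h. Most luminal markers outside the keratins that passed at 48 h were lower. Stromal markers had 2 higher of 10 at 24 h and 3 higher and 2 lower at 48 h, with medians between -0.086 and 0.46 over the 4 arrays. Leukocyte and endothelial markers had 2 higher of 9 at each time, with array medians between 0 and 0.36. No marker of either list was at 0 on all arrays, and their part in the keratin ratios was not tested. Among them CD68 was at 2.83 ± 0.21 and 2.45 ± 0.49 and VIM at 2.05 ± 0.13 and 1.68 ± 0.40. LUM went the other way, at -0.34 ± 0.040 and -1.71 ± 0.14, and was lower at 48 h (limma adjusted p = 0.00813). COL3A1 was at 0.78 ± 0.017 and 0.030 ± 0.048, VWF at 0.94 ± 0.082 and 0.084 ± 0.070, and CD14 at 0.78 ± 0.27 and 0.91 ± 0.19.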

How the data were processed

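The authors deposited 1 table of log10 ratios, 45220 features on 4 two-colour arrays, made with Agilent Feature Extraction 8.5.1.1 per the submitters' processing notes. The table states neither base nor direction. The values were read as log10 of Cy5 (azacytidine) over Cy3 (DMSO), the software's convention with the dyes of the labels, and turned into log2. Every column had a median of 0, and how it was centred is not given in the sources used here. Intensities were not analysed, so no filter on signal could be set.

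Features with 1 gene symbol (31332 of 43376 with values) were averaged per gene. Of the annotated features, 31291 were matched to the gene table of GRCh38.p14 by identifier. A model of limma 3.58.1, run in R 4.3.3, took the ratios of 18334 genes, with a mean for each time over all 4 arrays (2 residual and 0.735 prior degrees of freedom), and its p-values, over all of these genes, were given a Benjamini-Hochberg adjustment. The fit was tested on simulated data with known changes. The number of arrays limits the precision.

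Members, classes and gene lists were chosen with earlier results of these data known, and lists were described by counts and medians. Full values are given for keratins past the threshold at a time with both arrays of 1 sign and for KRT5, KRT7, KRT8, KRT14, KRT15, KRT18, KRT19, KRT20 and KRT23; KRT17, in the same rule, was not analysed here. From each other list the 3 genes with the lowest p in the average of both times could be named. KRT2, KRT3, KRT10, KRT28, KRT32, KRT33B, KRT72, KRT76 and KRT222 were named after their values were seen. Replicates of the same number at 24 h and 48 h deviated with r = -0.035 across genes. This value, from 4 arrays, cannot decide whether the numbers paired the arrays, and the labels do not say. Alternatives changed the block, centring, scaling, feature summary, treatment of values at 0, variance moderation, arrays fitted, minimum fold and the base of the ratios. Figures were drawn with matplotlib 3.10.9.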

Additional observations from a re-analysis of the deposited data

Results flagged for a closer look

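For 10 keratins the ratio of azacytidine over DMSO differed between 48 h and 24 h by the limma test of that difference. The log2 difference of 48 h minus 24 h was 1.49 for KRT19, 1.47 for KRT15, 1.58 for KRT71, 0.86 for KRT85, 0.83 for KRT35 and 0.28 for KRT18. It was -2.78 for KRT7, -2.76 for KRT6C, -1.25 for KRT16 and -0.64 for KRT33B. For each of these genes the 2 arrays of one time did not overlap those of the other. KRT19 lay at the edge of the threshold (limma adjusted p = 0.0498), and KRT18 joined features of opposite direction. Neither feature of KRT16 passed this difference when fitted singly (limma adjusted p = 0.0965 and 0.384). For KRT7, 1 of the 48 h arrays was listed at exactly 0.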

How the results depend on the processing

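With a replicate block limma called 0 keratins in place of 7 at 24 h, 0 in place of 8 at 48 h, and 0 in place of 10 both in the average and in the difference (12, 14, 15 and 12 had an unadjusted p under 0.05). It called 0 of all 18334 genes in each of these, so the loss is not particular to keratins. Leaving out single arrays moved the calls. Each such fit holds 1 array at the time left short, so no counts are given. Without either 24 h array no gene at all was called, keratin or other. Without either 48 h array KRT7, KRT16 and KRT35 lost their 24 h call, and KRT15, KRT19, KRT6C and KRT80 kept it. At 48 h KRT15, KRT18, KRT19 and KRT80 kept theirs without either 48 h array. Without 48 h replicate 1 some keratins were called lower at 48 h and in the average, among them KRT10, KRT13 and KRT20. In the difference only KRT6C and KRT19 kept their call without either 48 h array. The 48 h arrays alone gave 0 keratins at 48 h (9 at an unadjusted p under 0.05) and 0 of all 18334 genes. At 24 h there were 11 with the arrays centred (29.7% of all genes) and 14 with them scaled to 1 spread (41% of all genes). Without genes at 0 on all arrays, a setting chosen after seeing the data, 12 of 39 keratins passed at 24 h and 13 at 48 h. The shares of all genes were then 32.8% and 49.5%. Without features at 0 there were also 13 at 48 h, of 24 keratins tested, against 57.5% of all genes. In both settings 12 of these 13 were higher and 1 lower. A 2-fold minimum left 5 at 48 h and 6 in the difference, against 21.9% and 15.2% of all genes. Robust moderation left 4 in the difference, against 14.2% of all genes. The causes were not tested, except that leaving out arrays and filters change what is fitted. Of single ratios, 5 turned sign, all of keratins not called at that time: KRT8 at 48 h (-0.10 without 48 h replicate 1, 0.27 without 48 h replicate 2), KRT20 at 48 h (-1.02 and 0.25), KRT14 at 24 h (0.96 without 24 h replicate 1, -0.053 without 24 h replicate 2), and KRT16 at 48 h (6.08e-04 with centring, -0.14 without 48 h replicate 1, 0.066 without 48 h replicate 2). Read as log2, the ratios shrank to 1.31 for KRT19, 1.06 for KRT15 and 0.66 for KRT80 at 48 h, with the same calls. KRT80 was at 4.39 in place of 2.19 at 48 h without features at 0. KRT18 lost its 48 h call without features at 0 (limma adjusted p = 0.0782) and without genes at 0 on all arrays (0.0783). KRT14 passed at 48 h in the same 2 settings (limma adjusted p = 0.00973 and 0.0128) and with the arrays centred (0.0254). Signal over background, which would bear on the values at 0, was not analysed here.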

Other observations

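Keratin-associated protein genes, which encode the matrix in which hair keratins are embedded, were measured by 42 genes, 8 of them listed at 0 on all arrays. At 24 h 3 were higher and 1 lower, and at 48 h 4 were higher and 1 lower. These are 9.52% and 11.9% of the 42 genes, against 24.3% and 38.8% of all genes. Their median was 0 at 24 h and 0.040 at 48 h, and the means ranged from -1.41 for KRTAP9-2 to 2.24 for KRTAP3-3 at 24 h, both named after their values were seen. Features of keratin pseudogenes were left out of the keratins. KRT17P5 was at 0.36 ± 0.18 at 24 h and 0.71 ± 0.29 at 48 h, KRT19P2 at -1.26 ± 0.14 and -0.13 ± 0.56, and KRT8P41 at 0.44 ± 1.27 and -0.44 ± 0.59 (SD, n = 2 arrays), and none passed the limma test at either time.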
